A study of Homo sapiens with 18 samples.

Results

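The response of N108 cells to tumour necrosis factor (TNF) was compared with that of WT cells, gene by gene, as a difference of differences. For each gene, the change with TNF in WT was subtracted from the change with TNF in N108, on the log2 scale. This quantity is called the interaction here, so a positive value means a larger rise or a smaller fall in N108. The comparison used 12 of the 18 libraries of the series, 3 in each of 4 groups, and every gene that passed a filter on low counts (19038 of 61552 genes). All groups were HCT116 cells, an established human colorectal carcinoma line, and all carried a knock-in of IκBα, the product of NFKBIA. The WT groups carried wild-type IκBα and the N108 groups a mutant that the labels name N108. Cells of both genotypes were either untreated or given human TNFα at 0.1 µg/mL for 40 min. A further mutant, M3 (H84, E85 and E86 changed to A), was sequenced under the same conditions, and its 6 libraries served as an outside comparison. By its title, the study used the mutants to look for functions of IκBα in stemness of the intestine that do not need NF-κB. The labels do not say whether each genotype is 1 clone or more, so the mutation and the clone that carries it cannot be told apart. Whether the 3 replicates of a group came from separate cultures is not stated there. The p-values therefore measure only how far these libraries spread, and that spread may be technical.

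IκBα binds NF-κB dimers and keeps them in the cytoplasm. Binding of TNF to its receptor activates the IκB kinase (IKK) complex, which marks IκBα for degradation, and the released dimers enter the nucleus and bind κB sites near their target genes. Among the first transcripts made are those of chemokines and of inhibitors that end the response, including IκBα itself and the ubiquitin-editing protein A20. Immediate early genes such as JUN and EGR1 respond in the same window through kinases that act beside NF-κB. Because the interaction compares ratios, a gene that starts lower in N108 and gains an equal amount of transcript has a positive interaction. The untreated level, the treated level and the gain are therefore given beside each ratio.

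Library totals lay between 49407844 and 76947190 counts. Levels are given in CPM. For the markers in this paragraph these are counts scaled to the library total. In all other paragraphs that total was first multiplied by the library's TMM scaling factor, between 0.9762 and 1.014, so levels of 1 gene can differ slightly between them. Epithelial markers were present, with 12 of 13 listed genes tested, a summed level of 7207 to 7936 CPM in the WT libraries and 5673 to 6248 CPM in the N108 libraries, and CDX1 at or near 0. Of the fibroblast markers 4 of 10 were tested, and their summed level was 25.9 to 34.8 CPM in WT and 37.3 to 48.0 CPM in N108. DCN and LUM had no counts, COL1A2 reached at most 0.0131 CPM, and COL1A1 accounted for 15.0 to 36.0 CPM. The immune list (4 of 10 tested) summed to at most 5.43 CPM with PTPRC at no more than 0.0163 CPM, and the endothelial list (3 of 8) to at most 2.45 CPM with PECAM1 at no more than 0.0806 CPM. In bulk RNA, fewer cells of a type and less RNA per cell cannot be told apart.

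Libraries of 1 group differed from each other in how their counts followed the GC content of transcripts. The trend is given as the Spearman correlation, over 18537 genes, between a library's deviation from its group mean and transcript GC content. It describes each library, since genes are not replicates. It was 0.459 for N108 TNF replicate 2 and -0.522 for N108 TNF replicate 3, and lay between -0.396 and 0.292 in the other 10 libraries. The interaction followed GC content as well (Spearman 0.51). Its median went from -0.20 in the decile of genes with the lowest GC content (median 38.4%) to 0.19 in the decile with the highest (64.0%). The response in WT ran against GC content (-0.30) and that in N108 ran with it (0.50). Interaction counts are therefore followed by those obtained with each library's GC trend removed. For that removal the trend was fitted to a library's deviation from the mean of all libraries in the fit, not of its group. It therefore also took out differences between groups that followed GC content. The Spearman correlation left in the interaction, -0.026, follows from how the removal was done.

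**Figure D1:**
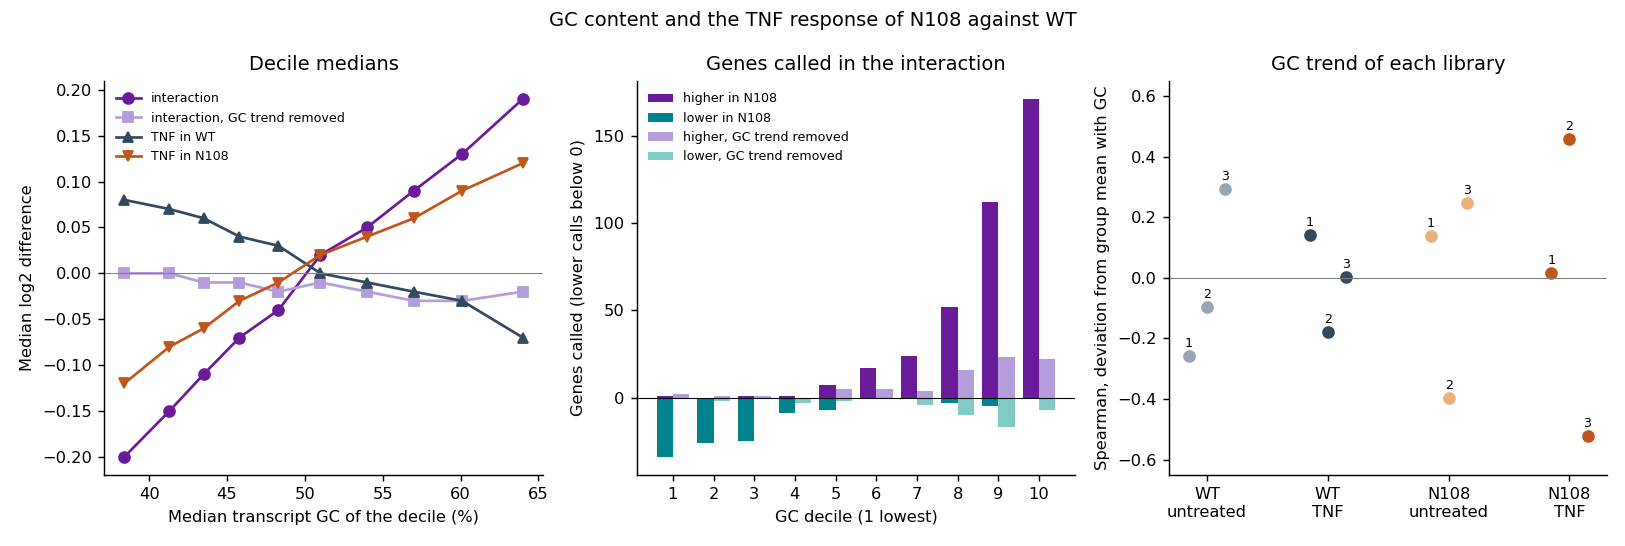
Left, median log2 difference in each decile of genes by transcript GC content (x axis, percent) for the interaction before and after removal of the GC trend and for TNF in WT and in N108. Middle, genes called in the interaction per decile, with lower calls drawn below 0. Right, Spearman correlation of each library's deviation from its group mean with GC content, numbered by replicate. The interaction rises from -0.20 to 0.19 across the deciles, 171 of the higher calls lie in the highest decile, and N108 TNF replicates 2 and 3 lie farthest from 0.

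Over all genes, the TNF response was higher in N108 for 387 genes and lower for 111. These were 2.03% and 0.583% of the genes tested, 2.62% in all (edgeR's quasi-likelihood test, adjusted p under 0.05). Upper-quartile scaling gave a split of 506 and 68. TNF itself raised 387 genes (2.03%) and lowered 600 in WT (5.18% in all), and raised 209 and lowered 19 in N108 (1.20%). The split in WT depended on the setting, with 680 raised and 602 lowered after removal of the GC trend and 229 raised and 789 lowered with upper-quartile scaling. In N108 it was 190 and 25 with the GC trend removed. The higher calls had a median GC content of 61.0% and the lower calls one of 42.1%, against 49.6% for all genes tested. Removal of the GC trend gave 79 higher and 47 lower interaction calls (0.662%), and 92 of these were among the 498. Leaving out N108 TNF replicate 3 gave 2430 calls, leaving out N108 TNF replicate 2 gave 191, and leaving out any 1 of the other 10 libraries gave 183 to 714. Without both of those replicates, a setting chosen after the data were seen, there were 254. Of the 498 genes, 138 were called whichever library was left out, 78 of these also with the GC trend removed, and 14 also whichever library was left out with the trend removed. Those 14 are TNFAIP3, NFKBIZ, COL1A1, BAIAP3, ATG16L2, NFATC4 and CDK10 with 2 genes that have no symbol (higher), and EGR3, TIFA, DEPP1, PPP1R3B and ITPKC (lower).

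**Figure D2:**
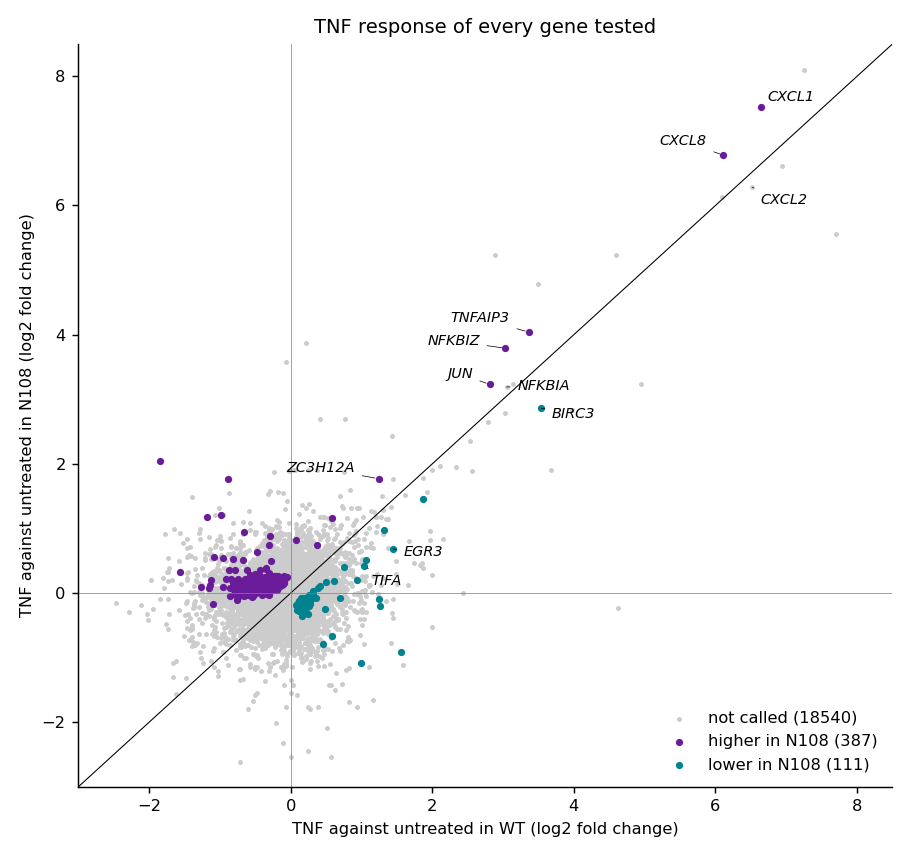
Log2 fold change with TNF in WT (x axis) and in N108 (y axis) for the genes tested, with the line of equal response. Purple points mark the 387 genes with a higher response in N108 and teal points the 111 with a lower one. Most purple points lie left of 0 on the WT axis and at or above 0 on the N108 axis, and 2 uncalled genes fall outside the axes.

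NFKBIA, the gene of the altered protein (ENSG00000100906, chromosome 14, 35401511 to 35404749, minus strand, GRCh38), responded by a similar ratio in both genotypes from different starting levels. Its level in WT was 90.8, 87.4 and 96.5 CPM untreated and 744, 749 and 781 CPM with TNF. In N108 it was 30.1, 28.5 and 32.1 CPM untreated and 274, 296 and 258 CPM with TNF. Every N108 library was below every WT library of the same treatment. The log2 fold change with TNF was 3.05 in WT and 3.19 in N108, and their difference did not pass the test (0.14, SE 0.072, adjusted p = 0.26). In CPM the gain was 667 in WT and 246 in N108, a difference of -421 (SE 16). Counts per gene do not show the altered residues.

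The 5 NF-κB subunit genes gave no call in the interaction. NFKB1 (p105 and p50) had an interaction of -0.03, RELA (p65) of 0.09, REL of -0.09, RELB of -0.08 and NFKB2 (p100 and p52) of 0.15. Their adjusted p lay between 0.25 and 0.81. NFKB1 and RELA were lower in N108 than in WT both untreated (-0.31 and -0.22) and with TNF (-0.34 and -0.13). NFKB2 rose with TNF in both genotypes, from 97.2, 97.6 and 102 to 139, 135 and 121 CPM in WT and from 103, 98.0 and 103 to 156, 156 and 137 CPM in N108.

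Some feedback inhibitors of NF-κB rose by a larger ratio in N108. Of 15 members tested, 3 were higher in the interaction (TNFAIP3, NFKBIZ and ZC3H12A) and 0 lower. The shares over all genes were 2.03% and 0.583%, and 0.415% and 0.247% with the GC trend removed. The list's median was 0.07 against 0.01 for all genes. With the GC trend removed TNFAIP3 and NFKBIZ were called, and the median was -0.06 against -0.01. With TNF, 8 of the 15 rose in WT and 9 in N108, and none fell in either.

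TNFAIP3 encodes A20, which trims ubiquitin chains and shuts off signalling from the TNF receptor (ENSG00000118503, chromosome 6, 137867188 to 137883312, plus strand). In WT it stood at 24.6, 24.9 and 24.9 CPM untreated and at 254, 265 and 245 CPM with TNF. In N108 it stood at 10.0, 9.21 and 9.29 CPM untreated and at 151, 174 and 146 CPM with TNF. N108 was below WT without overlap both untreated (log2 difference -1.38, adjusted p = 5.3e-16) and with TNF (-0.70, adjusted p = 3.8e-11). The ratio to the untreated level was larger in N108, with a log2 fold change of 4.04 against 3.36 (interaction 0.68, SE 0.085, adjusted p = 2.6e-04). The gain in CPM was smaller in N108, 147 against 230 (difference -82.6, SE 10).

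NFKBIZ encodes IκBζ, an IκB-family protein that works in the nucleus (ENSG00000144802, chromosome 3, 101827991 to 101861022, plus strand). WT libraries held 6.81, 6.34 and 6.58 CPM untreated and 53.7, 56.6 and 51.1 CPM with TNF. N108 libraries held 3.44, 4.22 and 4.12 CPM untreated and 52.2, 59.7 and 51.6 CPM with TNF. The genotypes were apart before TNF (log2 difference -0.74, adjusted p = 3.2e-08) and overlapped after it (0.02, adjusted p = 0.83). The interaction was 0.76 (SE 0.10, adjusted p = 5.4e-04), while the gain was 47.2 CPM in WT and 50.6 CPM in N108 (difference 3.35, SE 3.1). Both TNFAIP3 and NFKBIZ were called under all 12 other settings and whichever library was left out.

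ZC3H12A encodes the RNase Regnase-1, which degrades cytokine mRNA. It differed from these genes in that N108 did not start lower, with 7.71, 7.49 and 7.56 CPM in untreated WT and 8.63, 7.39 and 8.49 CPM in untreated N108. With TNF it reached 16.3, 19.1 and 18.3 CPM in WT and 26.9, 31.7 and 24.7 CPM in N108. The treated groups did not overlap, and both the interaction (0.53, SE 0.11, adjusted p = 0.012) and the gain (10.3 and 19.6 CPM) were larger in N108. This did not hold with the GC trend removed (0.35, adjusted p = 0.067) or when N108 untreated replicate 2 was left out (adjusted p = 0.052). Other members had similar responses in both genotypes, such as NFKBIE, which encodes IκBε (interaction 0.05, adjusted p = 0.81, with log2 fold changes of 0.92 in WT and 0.96 in N108).

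**Figure D3:**
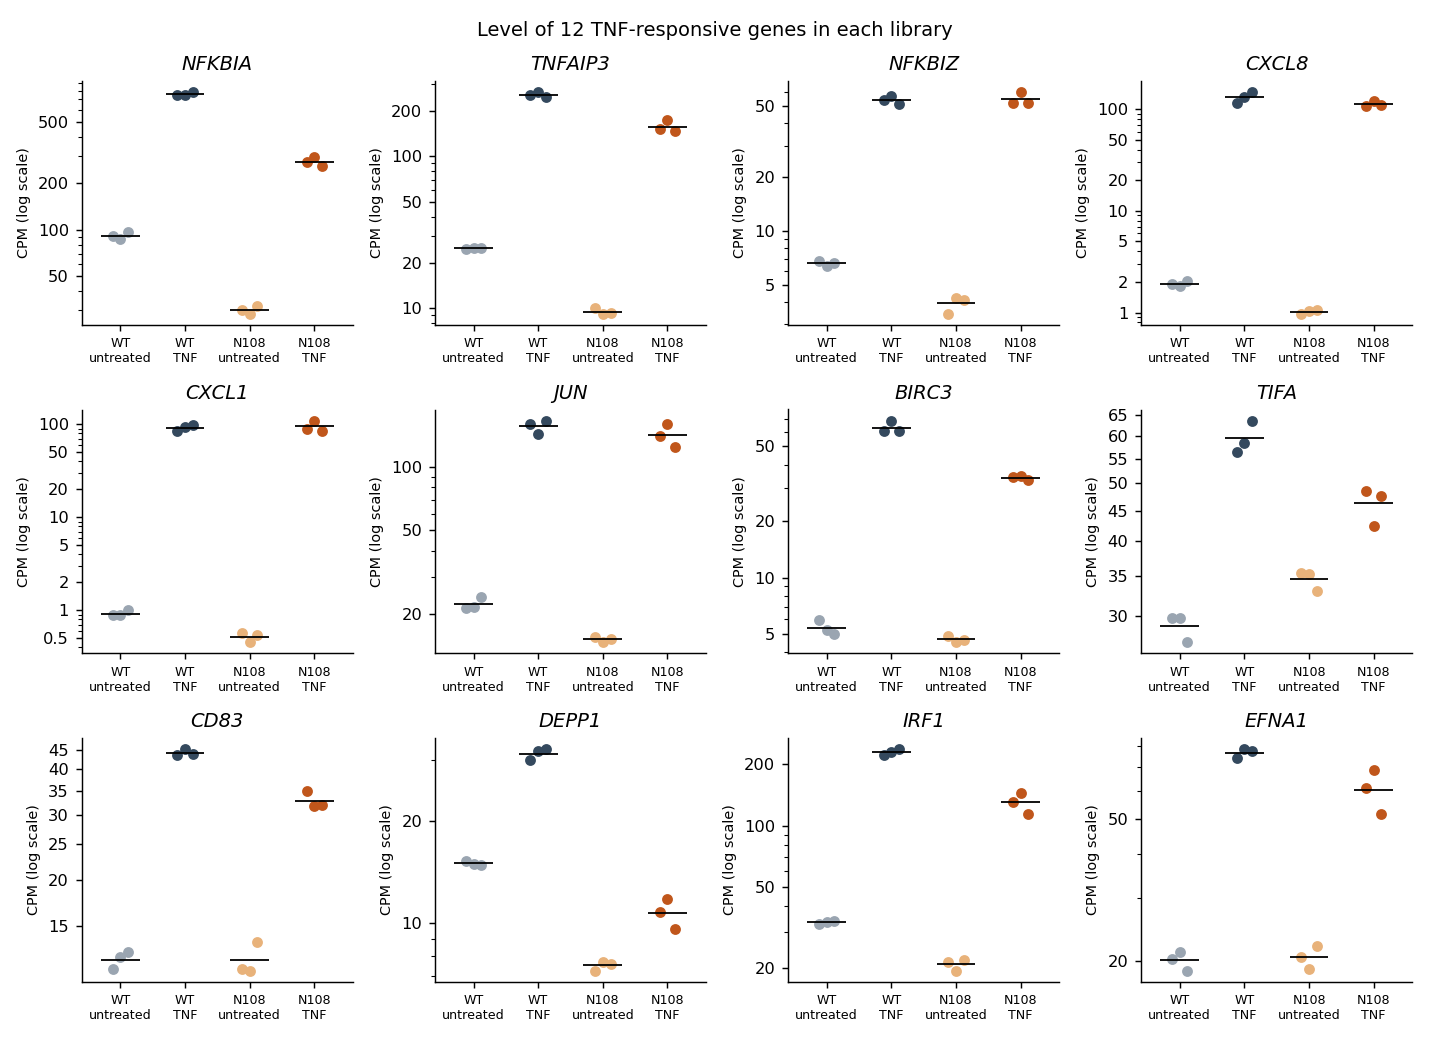
CPM of 12 TNF-responsive genes in each of the 12 libraries (log axis, scaled separately for each gene), with a bar at the group mean. TNFAIP3, NFKBIZ and CXCL8 start lower in N108, with 9.21 to 10.0 CPM for TNFAIP3 against 24.6 to 24.9 CPM in WT, whereas BIRC3 and CD83 part mainly with TNF. TIFA starts higher in N108 and is lower there with TNF.

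The promoters of several of these genes carry sequences that match the κB consensus, shown here to place the responses beside their upstream sequence. The 250 bases before each RefSeq start (GRCh38.p14) were searched on both strands for the κB consensus of 10 bases. Overlapping matches were counted apart. A match was found in 9.96% of all 35116 promoter entries and in 15.7% of the 12291 tested genes that had one. The stretches below run 5′ to 3′ on the strand of the gene, with the matching bases in capitals.
TNFAIP3, chr6:137867172-137867233, plus strand: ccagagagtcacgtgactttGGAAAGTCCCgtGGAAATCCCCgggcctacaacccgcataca
NFKBIZ, chr3:101827747-101827796, plus strand: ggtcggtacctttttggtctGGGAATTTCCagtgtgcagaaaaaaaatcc
NFKBIA, chr14:35404801-35404850, minus strand: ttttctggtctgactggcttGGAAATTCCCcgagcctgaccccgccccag
CXCL1, chr4:73869294-73869344, plus strand: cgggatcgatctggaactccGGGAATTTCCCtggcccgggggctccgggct
BIRC3, chr11:102317329-102317378, plus strand: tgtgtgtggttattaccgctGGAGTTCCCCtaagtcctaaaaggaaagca
TNFAIP3 and BIRC3 had 2 matches each in the window, and their interactions had opposite signs (0.68 and -0.67). The consensus matched NFKBIA and NFKBIZ once each, at 72 to 81 and 214 to 223 bases before the start shown. No match was found in these windows for CXCL8, JUN, ZC3H12A, TIFA or DEPP1, which says only that these letters were not there. A match describes sequence and does not show binding.

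Chemokine genes rose steeply in both genotypes, from untreated levels that were low and, for CXCL8 and CXCL1, lower still in N108. CXCL8, a neutrophil attractant (ENSG00000169429, chromosome 4, 73740506 to 73743716), stood at 1.91, 1.83 and 2.02 CPM in untreated WT and at 116, 132 and 147 CPM with TNF. In N108 it stood at 0.973, 1.04 and 1.05 CPM untreated and at 107, 119 and 111 CPM with TNF. The untreated groups did not overlap. The treated groups did, although N108 was called lower there as well (log2 difference -0.23, SE 0.061, adjusted p = 0.0029). The interaction was 0.67 (SE 0.15, adjusted p = 0.016), and the gain was 130 CPM in WT and 111 CPM in N108 (difference -18.5, SE 9.4). The call ended with the GC trend removed (0.91, adjusted p = 0.14) and without N108 untreated replicate 1 or 2 (adjusted p = 0.056 and 0.053).

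CXCL1, of the same chemokine family, had an interaction of 0.87 (SE 0.23, adjusted p = 0.041). It went from 0.888, 0.890 and 1.00 to 85.2, 92.9 and 97.9 CPM in WT and from 0.571, 0.456 and 0.540 to 89.8, 110 and 85.0 CPM in N108. The treated levels overlapped, and the gains were 91.1 and 94.6 CPM. With the GC trend removed the interaction was again 0.87 but with a larger SE (0.31, adjusted p = 0.21). The call also ended without any 1 of 8 libraries: the 3 untreated libraries of N108 (adjusted p = 0.071, 0.16 and 0.056), the 3 of WT (0.065, 0.089 and 0.12), and WT TNF replicates 2 and 3 (0.058 and 0.056). CXCL2, CXCL3 and CCL20 were not called, with interactions of -0.23, 0.04 and 0.84 and adjusted p from 0.75 to 0.97. CCL20 had counts in only 3 of the 6 untreated libraries.

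In the list of 19 tested chemokine and cytokine genes, 2 were higher in the interaction (CXCL8 and CXCL1) and 1 lower (TNFSF15). Over all genes 2.03% were higher and 0.583% lower, and the list's median was -0.15 against 0.01 for all genes. None of these 3 was called with the GC trend removed (TNFSF15 had -1.97, adjusted p = 0.11), and 1 other member, CXCL16, was lower. TNF raised 15 of the 19 in WT and 10 in N108 and lowered none. The levels were lower in N108 for 9 members untreated and for 12 with TNF. Of all genes, 21.6% were lower untreated and 23.6% with TNF (42.4% and 46.7% were called in either direction). Upper-quartile scaling moved the split over all genes with TNF from 4385 higher and 4501 lower to 5622 and 3360. TNFSF15, a member of the TNF family, stood below 1 CPM in every library and went from 0.309, 0.230 and 0.360 to 0.508, 0.672 and 0.592 CPM in WT. In N108 it went from 0.185, 0.0912 and 0.147 to 0.0978, 0.0193 and 0.0666 CPM (interaction -2.09, SE 0.57, adjusted p = 0.048). Its call ended without any 1 of 9 libraries (highest adjusted p = 0.16, without N108 TNF replicate 2).

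Among genes that act next to the TNF receptor, BIRC3 had a smaller response in N108. Of 26 tested members of the TNF receptor and IKK complexes, it was the 1 gene called (2.62% of all genes were called). The median interaction was 0.03. BIRC3 encodes cIAP2, a ubiquitin ligase of the TNF receptor complex that protects from cell death (ENSG00000023445, chromosome 11, 102317450 to 102339403, plus strand). It stood at 5.97, 5.23 and 4.98 CPM in untreated WT and at 4.88, 4.53 and 4.65 CPM in untreated N108. With TNF it reached 60.2, 68.7 and 60.1 CPM in WT and 34.4, 34.8 and 33.0 CPM in N108. The treated groups lay far apart (log2 difference -0.89, adjusted p = 4.0e-11), while the untreated levels were not called as different (-0.22, adjusted p = 0.069). The interaction was -0.67 (SE 0.12, adjusted p = 0.0033) and the gain 57.6 CPM in WT and 29.3 CPM in N108. BIRC3 has a low GC content (37.4%), and with the GC trend removed its interaction was -0.46 (adjusted p = 0.084).

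TIFA, an adaptor that carries signals to TRAF6 and NF-κB, had a smaller response in N108 under all 12 other settings and whichever library was left out. It stood at 29.8, 29.7 and 27.1 CPM in untreated WT and at 56.4, 58.4 and 63.7 CPM with TNF. In N108 it stood at 35.4, 35.3 and 33.0 CPM untreated and at 48.6, 42.5 and 47.6 CPM with TNF. The order of the genotypes turned, with N108 higher untreated (0.26, adjusted p = 0.0020) and lower with TNF (-0.36, adjusted p = 3.3e-05). The interaction was -0.62 (SE 0.091, adjusted p = 0.0013) and, with the GC trend removed, -0.46 (adjusted p = 6.4e-04). TRADD and RBCK1, which are on the list of TNF receptor and IKK complexes, were not called (0.38 and 0.24, adjusted p = 0.050 and 0.076).

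Of 25 other early NF-κB targets tested, 0 were higher in the interaction (2.03% of all genes) and 1 was lower, CD83 (0.583% of all genes). The median interaction was -0.11, while the list's median log2 fold change with TNF was 0.40 in WT and 0.50 in N108. With the GC trend removed 5 were lower (CD83, EFNA1, GADD45A, GADD45B and PLAU), against 0.247% of all genes. The median was then -0.12 against -0.01 for all genes. TNF raised 21 of the 25 in WT and 15 in N108. CD83, a surface protein of activated immune cells that other cells also make, went from 11.4, 12.3 and 12.7 to 43.6, 45.4 and 43.9 CPM in WT. In N108 it went from 11.4, 11.3 and 13.5 to 34.8, 31.8 and 31.9 CPM. The untreated levels overlapped and the treated levels did not (interaction -0.43, SE 0.092, adjusted p = 0.012, and -0.38 with adjusted p = 0.030 with the GC trend removed).

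EFNA1, which encodes an ephrin ligand, was not called in the fit used here and was called with the GC trend removed. In all, 6 of the 12 other settings and 3 of the 12 fits that left out 1 library gave a call. It went from 20.3, 21.2 and 18.8 to 74.0, 78.5 and 77.3 CPM in WT and from 20.5, 19.0 and 22.0 to 60.9, 68.7 and 51.6 CPM in N108. The interaction was -0.37 (SE 0.10, adjusted p = 0.055) and, with the trend removed, -0.48 (adjusted p = 0.0035). Again the genotypes overlapped untreated and not with TNF. IRF1, a transcription factor of the interferon response, was lower in N108 in both conditions and kept its ratio, with 32.8, 33.6 and 33.8 CPM in untreated WT and 21.4, 19.3 and 21.8 CPM in untreated N108. Its interaction was -0.15 (adjusted p = 0.35), and its gain was 197 CPM in WT and 109 CPM in N108.

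**Figure D4:**
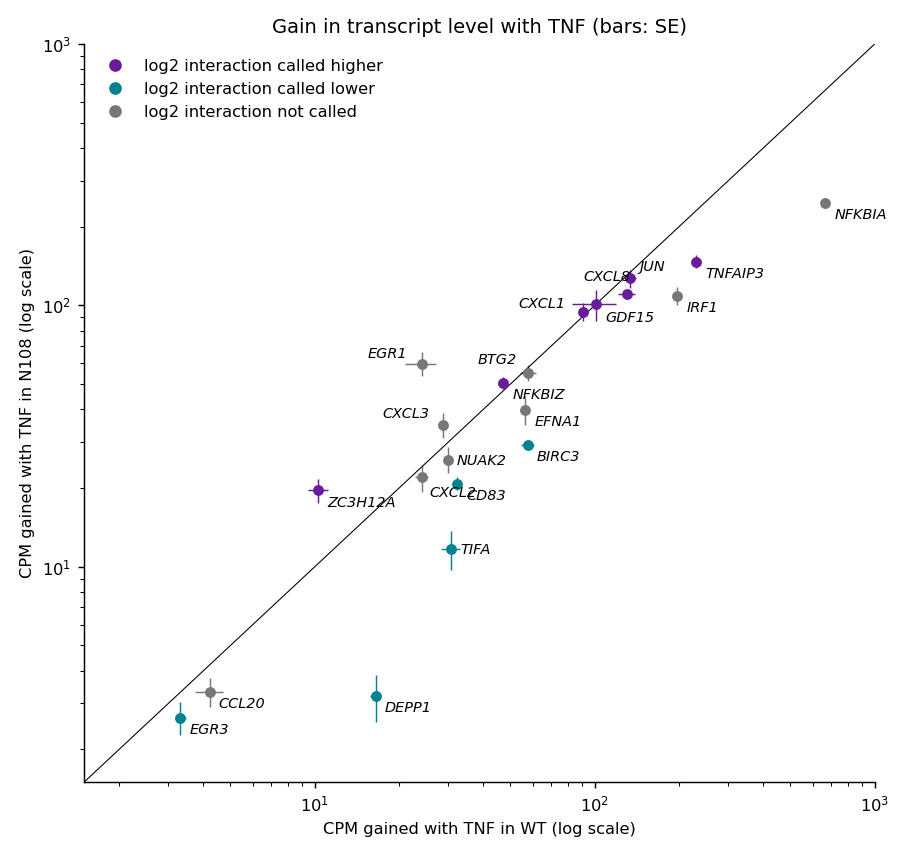
CPM gained with TNF in WT (x axis) and in N108 (y axis), both log scales, for 21 genes with the SE of each gain and the line of equal gain. Colours give the call of the log2 interaction. NFKBIA (667 and 246 CPM) and TNFAIP3 (230 and 147 CPM) lie below the line, NFKBIZ, CXCL1 and GDF15 near it, and ZC3H12A and EGR1 above it.

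Genes of the AP-1 family, which pair as JUN and FOS dimers, gave 1 higher call of 12, JUN (2.03% of all genes were higher). The median interaction was 0.14. Of the 12, 0 were higher and 2 lower (FOSB and JUNB) with the GC trend removed, against 0.415% and 0.247% of all genes. The median was then -0.03. JUN went from 21.3, 21.6 and 24.2 to 160, 144 and 166 CPM in WT and from 15.6, 14.7 and 15.3 to 141, 160 and 125 CPM in N108. The untreated levels did not overlap, the treated levels did, and the gains were 134 and 127 CPM. The interaction was 0.42 (SE 0.10, adjusted p = 0.026), and the call ended with the GC trend removed (0.30, adjusted p = 0.081). It also ended without N108 untreated replicate 1 or 2 (adjusted p = 0.053 and 0.084), N108 TNF replicate 2 (0.060), WT untreated replicate 3 (0.084) or WT TNF replicate 2 (0.063). FOSB was not called (-0.47, adjusted p = 0.053) and was lower with the GC trend removed (-0.60, adjusted p = 0.025).

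Among 24 other immediate early genes, 0 were higher (2.03% of all genes) and 1 was lower, EGR3 (0.583% of all genes). With the GC trend removed 4 were lower (EGR1, EGR3, NR4A1 and PPP1R15A), against 0.247% of all genes. EGR3, a zinc finger transcription factor (chromosome 8, 22687659 to 22693302, minus strand), went from 1.78, 1.87 and 2.20 to 5.12, 5.30 and 5.36 CPM in WT. In N108 it went from 4.46, 4.44 and 4.06 to 6.78, 7.66 and 6.46 CPM. N108 was higher in both conditions, untreated by 1.16 and with TNF by 0.40 on the log2 scale. The smaller ratio (interaction -0.76, SE 0.14, adjusted p = 0.0040) came with gains of 3.31 CPM in WT and 2.65 CPM in N108, a difference of -0.666 (SE 0.41). EGR1 was also higher in untreated N108 (111, 109 and 116 CPM against 30.1, 33.5 and 31.6 CPM), and its gain was larger there (59.9 against 24.1 CPM) although its interaction was -0.20 (adjusted p = 0.15) and, with the GC trend removed, -0.29 (adjusted p = 0.033).

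KLF10, which encodes a TGF-β-inducible repressor, was the 1 call of 11 Krüppel-like factors, also with the GC trend removed (2.62% and 0.662% of all genes). It rose from 83.5, 78.6 and 76.3 to 190, 197 and 209 CPM in WT and from 117, 112 and 105 to 220, 218 and 215 CPM in N108. Both conditions were without overlap, N108 being higher, and the interaction was -0.35 (SE 0.075, adjusted p = 0.011). The gains, 119 and 107 CPM, differed by -12.9 (SE 6.9).

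DEPP1, a FOXO target linked to autophagy and to the handling of reactive oxygen, had the smaller response on both scales. Of 12 tested FOXO and glucocorticoid-type targets it was the 1 gene called (2.62% of all genes were called), and the median was -0.13. DEPP1 (ENSG00000165507, chromosome 10, 44970981 to 44978810, minus strand) stood at 15.2, 14.9 and 14.8 CPM in untreated WT and at 30.0, 31.9 and 32.4 CPM with TNF. In N108 it stood at 7.27, 7.73 and 7.62 CPM untreated and at 10.8, 11.8 and 9.61 CPM with TNF. N108 with TNF stayed below untreated WT. The log2 fold change with TNF was 1.07 in WT, 0.51 in N108 and 0.33 in M3. The interaction was -0.56 (SE 0.099, adjusted p = 0.0033) and -0.71 with the GC trend removed (adjusted p = 4.9e-05), and the gain was 16.5 CPM in WT and 3.20 CPM in N108. TSC22D3, a glucocorticoid-induced gene, had an interaction of -0.22 that did not pass (adjusted p = 0.15).

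Among mRNA decay factors, 1 of 12 was higher, ZC3H12A, which is described above as a feedback inhibitor and stands in both lists (2.03% of all genes were higher). ZC3H12A was not called with the GC trend removed, and 1 other member, ZFP36, was lower. BTG1 and BTG2, which recruit deadenylases, were not called (-0.22 and -0.21, adjusted p = 0.10 and 0.12). Among 25 tested p53 targets, 2 were higher (GDF15 and PLK3) and 0 lower, with a median of -0.04, and neither was called with the GC trend removed (0.41 and 0.23, adjusted p = 0.056 and 0.11), when 1 other member, BBC3, was lower. GDF15, a stress cytokine of the TGF-β family, went from 195, 188 and 215 to 290, 280 and 331 CPM in WT and from 89.3, 73.5 and 82.8 to 175, 208 and 166 CPM in N108. It started lower in N108 and gained 101 CPM in both genotypes (interaction 0.57, SE 0.13, adjusted p = 0.029). The adjusted p rose above 0.05 when N108 untreated replicate 2 was left out (0.072), and likewise for N108 TNF replicate 2 (0.088), WT untreated replicate 3 (0.075) or WT TNF replicate 2 (0.060). PLK3, a stress-induced kinase, had an interaction of 0.38 (adjusted p = 0.028), which ended without any 1 of 6 libraries (highest adjusted p = 0.11, without N108 untreated replicate 2).

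Genes of cholesterol synthesis had 2 of 23 members with a lower response in N108, HMGCS1 and IDI1, and 0 higher. Over all genes 0.583% were lower and 2.03% higher. The list's median was -0.01. Removal of the GC trend ended both calls and gave a median of -0.10 against -0.01. HMGCS1, which makes HMG-CoA, went from 114, 115 and 112 to 129, 126 and 130 CPM in WT and from 91.3, 101 and 98.2 to 93.3, 85.2 and 94.6 CPM in N108. The WT groups did not overlap, with TNF higher, and the N108 groups did. It rose in WT (0.18, adjusted p = 0.028) and had a log2 fold change of -0.09 in N108 (adjusted p = 0.37). The interaction was -0.27 (SE 0.069, adjusted p = 0.034). IDI1, an isomerase further along the pathway, had an interaction of -0.34 (SE 0.090, adjusted p = 0.042), and both genes have a low GC content of 41.6%. Their calls ended without any 1 of 9 libraries each (highest adjusted p = 0.12 and 0.14, both without N108 untreated replicate 2).

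Of 16 tested intestinal stem cell markers, 1 was higher (TERT) and 1 lower (PROM1), against 2.03% and 0.583% of all genes. Neither was called with the GC trend removed (0.39 and -0.16, adjusted p = 0.11 and 0.17). TERT, the catalytic subunit of telomerase, went from 4.82, 4.85 and 5.46 to 4.33, 3.29 and 3.62 CPM in WT and from 7.89, 8.61 and 8.59 to 9.32, 10.8 and 8.70 CPM in N108. It fell in WT (-0.43, adjusted p = 0.013) and had a log2 fold change of 0.19 in N108 (adjusted p = 0.30). The interaction was 0.62 (SE 0.14, adjusted p = 0.014), and the call ended without WT TNF replicate 2 (adjusted p = 0.052). PROM1, which encodes CD133, had an interaction of -0.25 (adjusted p = 0.049), which ended without any 1 of 10 libraries. CD44 was not called (-0.15, adjusted p = 0.13).

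A set of 62 TNF-induced genes was chosen in M3, whose libraries are in neither arm of the interaction, as those raised at least 2-fold there (1.10% of all genes tested rose with TNF in M3 and 0.278% fell, 1.38% in all). Their median log2 fold change was 1.43 in WT and 1.51 in N108. The median interaction was 0.02, against 0.01 for all genes. The spread of the set's median level between libraries gave an SE of 0.12 for the difference of differences of that level. That is not the SE of the median interaction. The interaction was above 0 for 31 genes and below 0 for 31. TNF raised 55 of the 62 in WT and 56 in N108 (2.03% and 1.10% of all genes). In the interaction 7 were higher (CXCL1, CXCL8, JUN, MIR6835, NFKBIZ, TNFAIP3 and ZC3H12A) and 4 lower (BIRC3, CD83, EGR3 and KLF10), against 2.03% and 0.583% of all genes. Removal of the GC trend gave 2 higher, NFKBIZ and TNFAIP3, and 13 lower, against 0.415% and 0.247% of all genes. The 13 were CD83, CEBPD, DLX2, EFNA1, EGR3, ELF3, FOSB, JUNB, KLF10, NOCT, PLAU, PPP1R15A and ZFP36. The level in N108 was below that in WT for 25 of the 62 untreated and for 32 with TNF, and above it for 9 and 12. Over all genes tested, 21.6% and 23.6% were lower and 20.9% and 23.0% higher. Of the 45 that had a promoter entry, 19 (42.2%) held the κB consensus.

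The higher calls as a whole were mostly genes whose transcript fell in WT and did not fall in N108. Of the 387, 356 had a log2 fold change below 0 in WT and above 0 in N108, with medians of -0.34 and 0.13. TNF lowered 305 of them in WT and 0 in N108, and raised 8 in WT and 14 in N108. In M3 their median was -0.05, and TNF lowered 3 and raised 11, so the lack of a fall was not particular to N108. At the untreated level alone 126 were lower in N108, at the treated level alone 131 were higher in N108, and 76 were both. A further 25 were lower in both conditions and 29 higher in both. These levels come from the same libraries as the interaction and describe it. With the GC trend removed, 76 of the 387 were called, 70 of them with the same pair of signs. Median GC content of the 76 was 59.0%.

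The lower calls showed the opposite arrangement, with 98 of 111 above 0 in WT and below 0 in N108 and medians of 0.18 and -0.15. TNF raised 44 of them in WT and 7 in N108, and lowered 0 and 2. In M3 their median was 0.02, with 8 raised and 0 lowered, so the smaller response was not particular to N108. For 49 the treated level alone was lower in N108, for 20 the untreated level alone was higher, and 7 were both. A further 27 were lower and 8 higher in both conditions. Protein-coding genes made up 95.5% of the lower and 84.7% of the higher calls, against 75.0% of all genes. Of the 16 lower genes also called with the GC trend removed, 10 had a log2 fold change above 0 in both genotypes.

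**Figure D5:**
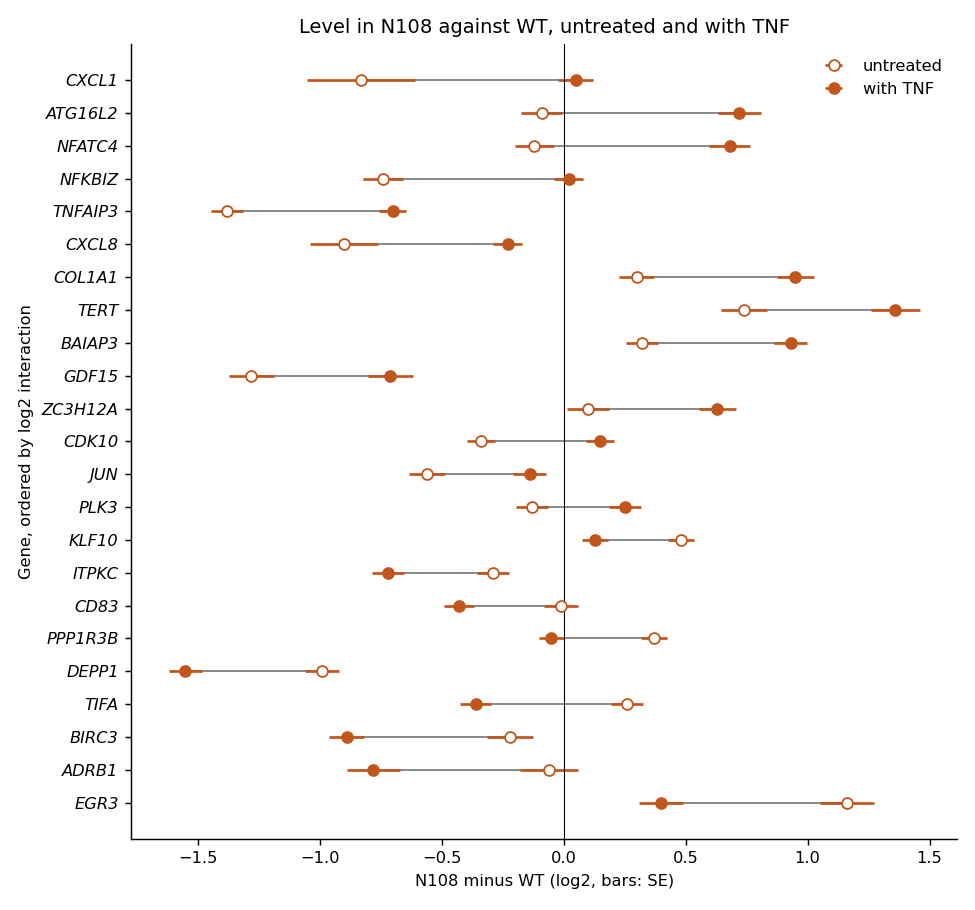
Log2 difference between N108 and WT (x axis) untreated (open) and with TNF (filled) for 23 genes called in the interaction, ordered by the interaction, with SE bars. TNFAIP3 and GDF15 are below WT in both conditions and closer to it with TNF, COL1A1 and BAIAP3 are above WT and farther from it with TNF, and PPP1R3B and TIFA start above WT and end at or below it.

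The genes called whichever library was left out, before and after removal of the GC trend, include 5 of the higher kind with a fall in WT. COL1A1, the α1 chain of type I collagen (chromosome 17, 50183289 to 50201632, minus strand), went from 22.7, 23.0 and 22.9 to 17.8, 18.5 and 15.3 CPM in WT and from 28.7, 26.5 and 28.9 to 32.9, 36.4 and 30.3 CPM in N108. The WT groups did not overlap, nor did the N108 groups, although the N108 rise did not pass (0.24, adjusted p = 0.11). The interaction was 0.65 (SE 0.10, adjusted p = 0.0025), and COL1A2, its partner chain and a fibroblast marker, was at or near 0. BAIAP3, which acts in dense-core vesicle traffic, went from 37.7, 39.3 and 37.4 to 30.0, 28.8 and 24.7 CPM in WT and from 46.4, 47.7 and 48.4 to 53.1, 58.8 and 47.4 CPM in N108 (0.62, SE 0.094, adjusted p = 0.0016). Again only the fall in WT passed the test on its own.

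ATG16L2, a relative of the autophagy factor ATG16L1, went from 13.1, 13.8 and 13.1 to 9.63, 9.76 and 7.48 CPM in WT and from 11.7, 12.3 and 13.6 to 15.6, 15.2 and 13.3 CPM in N108 (0.81, SE 0.12, adjusted p = 0.0015). NFATC4, a calcineurin-regulated transcription factor, went from 8.19, 6.91 and 7.02 to 5.14, 4.72 and 4.87 CPM in WT and from 6.91, 6.78 and 6.69 to 7.97, 8.22 and 7.43 CPM in N108 (0.80, SE 0.11, adjusted p = 0.0011). CDK10, a cyclin-dependent kinase, went from 108, 110 and 109 to 90.2, 83.5 and 79.0 CPM in WT and from 84.7, 84.1 and 89.8 to 95.4, 101 and 83.2 CPM in N108 (0.49, SE 0.082, adjusted p = 0.0032). For all 3 the WT groups were apart, with TNF lower, and the rise in N108 did not pass (adjusted p = 0.21, 0.22 and 0.35).

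On the lower side, PPP1R3B, a glycogen-targeting subunit of protein phosphatase 1, went from 36.8, 34.2 and 35.8 to 45.3, 45.1 and 46.0 CPM in WT and from 45.7, 46.6 and 45.9 to 43.8, 43.8 and 43.9 CPM in N108. It rose in WT to about the level N108 had without TNF (interaction -0.43, SE 0.073, adjusted p = 0.0032). ITPKC, an inositol trisphosphate kinase, went from 19.9, 20.2 and 21.1 to 31.7, 30.0 and 31.6 CPM in WT and from 16.9, 15.2 and 17.8 to 19.8, 19.8 and 17.3 CPM in N108. Its gain was 10.7 CPM in WT and 2.28 CPM in N108 (interaction -0.42, SE 0.091, adjusted p = 0.011). These genes were singled out after their values were seen, for being called whichever library was left out, before and after removal of the GC trend.

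The highest interactions among called genes with a gene symbol and at least 1 CPM in some group came from low-level transcripts that fell in WT. LINC02990 (1.27), ADAM8 (1.23), SYT8 (1.20), CAPN3 (1.14), EFEMP2 (1.06), IL11RA (1.03), KCP (0.99), WDR97 (0.96), ASIC3 (0.95), GNB3 (0.94), AP1G2-AS1 (0.93) and ATG9B (0.93) made up the 12 highest. ADAM8, a membrane metalloprotease, went from 1.85, 2.30 and 1.98 to 0.996, 1.51 and 0.853 CPM in WT and from 1.34, 1.68 and 1.90 to 2.02, 2.57 and 1.78 CPM in N108 (SE 0.24, adjusted p = 0.0068). GNB3, a G protein subunit, went from 5.48, 6.06 and 5.36 to 3.76, 3.44 and 2.7 CPM in WT and from 3.98, 4.50 and 3.94 to 4.53, 5.34 and 4.05 CPM in N108 (SE 0.16, adjusted p = 0.0032). All 12 fell in WT and none was called with TNF in N108 or in M3. The call of WDR97 ended without any 1 of 10 libraries (highest adjusted p = 0.17, without WT TNF replicate 3). Those of CAPN3 and ATG9B ended without any 1 of 6 (highest 0.10 and 0.11, without N108 TNF replicate 2), that of IL11RA without any 1 of 5 (0.090) and that of KCP without any 1 of 3 (0.061). LINC02990, ADAM8, EFEMP2, GNB3 and AP1G2-AS1 were also called with the GC trend removed. LINC02990 and AP1G2-AS1 are antisense genes and uncertain, since the strand setting was not given in the sources used here.

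Under the same limits, the 12 lowest interactions were those of SKIDA1 (-0.78), EGR3 (-0.76), ODAM (-0.72), ADRB1 (-0.72), BIRC3 (-0.67), TIFA (-0.62), MIR924HG (-0.58), DEPP1 (-0.56), TEX9 (-0.52), UBE2E1 (-0.50), PDE5A (-0.46) and GOPC (-0.45). ADRB1, the β1-adrenergic receptor, went from 1.98, 2.29 and 2.08 to 3.76, 4.03 and 4.25 CPM in WT and from 2.01, 2.02 and 2.06 to 2.48, 2.22 and 2.32 CPM in N108 (SE 0.16, adjusted p = 0.015). It started level and parted with TNF, and was called whichever library was left out. In M3 the log2 fold change of ADRB1 with TNF was 0.02. SKIDA1 went from 3.67, 3.16 and 3.44 to 6.0, 5.19 and 5.46 CPM in WT and stayed between 0.654 and 0.938 CPM in N108 (SE 0.20, adjusted p = 0.035). The calls of SKIDA1, ODAM, MIR924HG, TEX9, UBE2E1, PDE5A and GOPC each ended without any 1 of 6 to 9 libraries, and all of these except GOPC ended with the GC trend removed. SKIDA1 then had an interaction of -0.77 (adjusted p = 0.066) and ODAM one of -0.62, while that of MIR924HG was -0.37 and that of PDE5A -0.28.

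Whether the response of N108 differed from that of the other mutant was tested in the same fit. It was lower in N108 than in M3 for 14 genes (0.0735% of those tested) and higher for 1 (0.00525%), 0.0788% in all. This difference between the mutants also followed GC content (Spearman 0.54), and the response in M3 ran against it (-0.28). TNFAIP3 had log2 fold changes of 3.36 (WT), 4.04 (N108) and 4.80 (M3), and the N108 value was below that of M3 (-0.76, SE 0.090, adjusted p = 1.2e-04). NFKBIZ (3.03, 3.79 and 4.36) and CXCL8 (6.11, 6.78 and 7.74) had the same order, and N108 was below M3 for both (-0.57 and -0.96, adjusted p = 0.033 and 0.017). NFKBIA had 3.05, 3.19 and 3.63 (-0.44, adjusted p = 0.0062). CD83 had the smallest response in N108, with 1.87, 1.45 and 1.92 (-0.47, adjusted p = 0.034). MAFF, NUAK2, ATF3, ZFP36, SDC4, PDGFB, ICAM1, PLK2 and IRF1 were also lower in N108 than in M3, and ID1 was higher (0.46, adjusted p = 0.0062). The comparisons with WT and with M3 share the N108 libraries, so their values are not independent. There were 21 lower and 1 higher with the GC trend removed. Without N108 TNF replicate 3, 650 genes were called in place of 15.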

How the data were processed

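Gene-level raw counts for all 18 libraries were deposited by the authors. The submitters' processing notes name STAR 2.7.8, Trim Galore 0.6.6, Subread 2.0.1 with featureCounts, DESeq2 1.38.3 and the hg38 build. Annotation release and strand setting were not given in the sources used here. A normalized table of log2 values, also deposited by the authors, was not used because counts could be tested. GENCODE 29 (GRCh38) gave coordinates and GC content for 97.4% of the genes tested.

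Counts were kept by filterByExpr (minimum count 10), scaled by TMM and fitted with edgeR 4.0.16 (quasi-likelihood, robust) in R 4.3.3 with 6 group means over 18 libraries (12 residual degrees of freedom). Contrasts gave two-sided p-values adjusted by Benjamini-Hochberg over 19038 genes, called under 0.05. Standard errors are the absolute log2 difference over the square root of F. The GC trend of each library's deviation from the mean of all libraries in the fit was removed with a loess fit (span 0.3) and TMM recomputed. SEs of gains come from the SDs of the groups. On simulated counts for the interaction over 19038 genes, 96 of 100 genes changed by a log2 of 1 and 76 of 100 changed by 0.5 were called, with 3.91% of calls false. The changed genes had a mean above 1 CPM, and the simulated libraries carried no GC trend of their own. These rates therefore do not give the share of false calls among the 498 genes. Promoter sequences are from RefSeq on GRCh38.p14.

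The members and gene lists were chosen with earlier results of these data known. A listed gene is not reported here, and its list is counted without it. Named genes were the 12 highest and 12 lowest called (at least 1 CPM in the highest group and a symbol that is no clone identifier), NFKBIA and the NF-κB subunits, from each list described the members with the smallest p (up to 3), and the 12 with the highest TNF response in M3. Genes called whichever library was left out, with and without the GC trend, and a few list members given beside them were added after their values were seen. Other settings tried were DESeq2 1.42.0, other scaling factors and filters, limma-voom 3.58.1 with sample weights, a fit without M3, replicate blocks and leaving out each library.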

Additional observations from a re-analysis of the deposited data

Results flagged for a closer look

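The responses of N108 and WT to TNF differed by the test of the difference itself (edgeR's quasi-likelihood test of the interaction) for 498 genes. Named genes with a larger rise or smaller fall in N108 were, with their log2 interactions, LINC02990 (1.27), ADAM8 (1.23), SYT8 (1.20), CAPN3 (1.14), EFEMP2 (1.06), IL11RA (1.03), KCP (0.99), WDR97 (0.96), ASIC3 (0.95), GNB3 (0.94), AP1G2-AS1 (0.93), ATG9B (0.93), CXCL8 (0.67), CXCL1 (0.87), TNFAIP3 (0.68), NFKBIZ (0.76), ZC3H12A (0.53), JUN (0.42), PLK3 (0.38), GDF15 (0.57), TERT (0.62), NFATC4 (0.80), ATG16L2 (0.81), CDK10 (0.49), COL1A1 (0.65) and BAIAP3 (0.62).

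Named genes with a smaller rise or a fall in N108 were SKIDA1 (-0.78), EGR3 (-0.76), ODAM (-0.72), ADRB1 (-0.72), BIRC3 (-0.67), TIFA (-0.62), MIR924HG (-0.58), DEPP1 (-0.56), TEX9 (-0.52), UBE2E1 (-0.50), PDE5A (-0.46), GOPC (-0.45), TNFSF15 (-2.09), CD83 (-0.43), KLF10 (-0.35), HMGCS1 (-0.27), IDI1 (-0.34), PROM1 (-0.25), PPP1R3B (-0.43) and ITPKC (-0.42). Of these genes, those called whichever library was left out and with the GC trend removed are named in the report. The part of the GC trend in the others was not tested beyond that removal.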

How the results depend on the processing

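The count of 498 genes in the interaction depended on the test and on single libraries. It was 1140 with DESeq2 (558 higher and 582 lower), 1362 without a low count filter, 2094 with limma-voom and sample weights, and 126 with the GC trend removed. Without N108 TNF replicates 2 and 3, chosen after the data were seen, it was 254. Leaving out 1 library at a time gave 183 to 2430 genes. With the GC trend also removed (added after the data were seen), leaving out N108 untreated replicates 1, 2 and 3 gave 27, 78 and 85 genes, N108 TNF 90, 45 and 167, WT untreated 29, 23 and 129, and WT TNF 260, 152 and 45. For TNF in WT (987 genes) limma-voom gave 1816 and leaving out 1 library 432 to 1233. For TNF in N108 (228) DESeq2 gave 347, no filter 652, limma-voom 528 and leaving out 1 library 143 to 1333. For N108 against M3 (15) DESeq2 gave 47, no filter 163, upper-quartile factors 9 and leaving out 1 library 7 to 650. The counts of N108 against WT untreated and with TNF stayed within 1.5 times of 8079 and 8886 in every setting run, and the median of the 62 TNF-induced genes lay between -0.07 and 0.05.

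Deviations of same-numbered libraries from their group means correlated between -0.063 and 0.065. Libraries with different numbers were not compared, so these values cannot show whether the samples were paired. A block by number gave 372 genes in the interaction. A replicate block within genotype gave 235, and 156 with the GC trend removed. For N108 against M3 the block within genotype gave 8.

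Of 1696 values of the 46 called named genes under other settings, 593 lost the call and 0 changed sign. Of 1036 values of the 28 uncalled named genes, 98 passed the threshold and 56 changed sign. Without N108 TNF replicates 2 and 3 that group held 1 library, which was assumed to vary like the other groups. The SEs given include the spread between these libraries and no wider source of variation, and transcripts near 1 CPM rest on few reads.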
